A study of Homo sapiens with 10 samples.

Results

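The interferon signalling genes described here are the receptor subunits IFNAR1 and IFNAR2, the receptor kinases JAK1 and TYK2, and the transcription factors IRF9, IRF1, IRF3 and IRF7. They were chosen by name, and every array probe set annotated to 1 of these symbols alone was taken. The list held 9 genes, of which 8 had such a probe set. STAT2, the other listed factor, had none in the annotation used and was not analysed here. The 8 genes carried 18 of the 54675 probe sets, and 16 of these 18 lay above the signal filter described below. Each of the 8 genes was among the 12034 genes tested, and the probe set reported for each had a mean above the filter both on the p53i arrays and on the LacZi arrays.

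The study measured RNA of SKBR3, a human breast cancer cell line with amplified HER2 and a mutant p53, on 10 Affymetrix arrays. The p53i cells were transfected with siRNA directed at p53, and the LacZi cells, the negative control, with siRNA directed at bacterial LacZ, with 5 arrays per siRNA. Of these 5, 2 hold untreated cells and 1 each holds cells given 100 nM calcitriol (D3 here), the active hormone made from vitamin D, for 8, 20 or 50 h. All cells were the same line grown in charcoal-stripped serum, and the sources used here do not give the number of siRNA sequences per target. D3 was added 48 h after transfection by the series text and 24 h by the sample text. The design sets p53i against LacZi, D3 against untreated cells, and the D3 response of one siRNA against that of the other.

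Type I interferons bind a receptor made of IFNAR1 and IFNAR2. The kinases TYK2 and JAK1, held on these subunits, then phosphorylate STAT proteins, which join IRF9 in the factor ISGF3. ISGF3 binds the interferon-stimulated response element in the promoters of antiviral genes. IRF3 is a constitutively present factor that is activated by phosphorylation after viral nucleic acid is sensed and starts interferon-beta transcription. IRF7 amplifies interferon production and is itself interferon-induced, and IRF1 is the factor best known from the response to interferon-gamma.

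Promoter sequence from RefSeq (GRCh38.p14, a window of 300 bases ending shortly after each gene's start) was available for 5 of the 8 genes, as 8 promoters. These genes were IRF9, IRF1, IFNAR1, JAK1 and TYK2, and no promoter was available for IRF3, IRF7 or IFNAR2. Both strands were searched for GAAA followed after any 2 bases by a second GAAA, the core of the interferon-stimulated response element, and TTCNNNGAA, the gamma-activated site bound by STAT dimers, where N is any base. IRF9 and IRF1 are shown because theirs were the only 2 of the 8 promoters with a match to either pattern. Capitals mark the gamma-activated site letters, which read the same on both strands.
IRF9 (chr14:24161015-24161314, plus strand): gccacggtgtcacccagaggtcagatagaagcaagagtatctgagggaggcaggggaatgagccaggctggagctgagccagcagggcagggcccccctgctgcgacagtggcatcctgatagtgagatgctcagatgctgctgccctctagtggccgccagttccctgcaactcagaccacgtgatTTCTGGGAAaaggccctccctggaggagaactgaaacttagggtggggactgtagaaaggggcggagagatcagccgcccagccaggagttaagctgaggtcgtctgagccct
IRF1 (chr5:132490724-132491023, minus strand): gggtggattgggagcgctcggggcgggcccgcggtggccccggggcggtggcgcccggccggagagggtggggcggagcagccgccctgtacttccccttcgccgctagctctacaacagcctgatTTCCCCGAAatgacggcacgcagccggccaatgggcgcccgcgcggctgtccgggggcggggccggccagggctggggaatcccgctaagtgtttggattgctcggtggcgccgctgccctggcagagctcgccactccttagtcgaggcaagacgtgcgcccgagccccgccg

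The gamma-activated site letters began 63 bases before the annotated start in IRF9 and 124 bases before it in IRF1. They occurred in 7.66% of the 35116 promoters of the same length, and the response element core in 3.57%. None of the 8 promoters held the response element core, and IRF3, IRF7 and IFNAR2 were not searched. Of 5 genes listed as known ISGF3 targets, IFIT1, ISG15, MX1 and IFI27 had a promoter that held the core. They were listed as known targets with earlier results of these data in view, so this is a description and not a test. The OAS1 promoter matched only the gamma-activated site pattern, and 1 of 3 MX1 promoters held neither pattern. The OAS1 promoter also held gaaacgaaa, which has a shorter spacer than the 2 bases required and was not counted. A promoter without a match may thus still hold a variant of the element. Windows of ISG15 and IFIT1 are printed to show what the core looks like where it occurs, with the core in capitals. On the IFIT1 line the capitals are the core read on the opposite strand, and each of these 2 promoters held a second match nearby.
ISG15 (chr1:1013369-1013408, plus strand): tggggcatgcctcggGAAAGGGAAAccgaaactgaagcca
IFIT1 (chr10:89392492-89392531, plus strand): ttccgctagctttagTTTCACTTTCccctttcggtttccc

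Signals are the deposited MAS5 intensities on a linear scale, and differences are on the log2(signal + 16) scale with standard errors (SE). A gene was called when its limma adjusted p, corrected over all 12034 genes by the Benjamini-Hochberg method, was below 0.05. Median signals of the arrays were 35.7 to 44.3, and the filter kept probe sets with a mean signal above 35.3. The SKBR3 markers ERBB2, GRB7, KRT8, KRT18, KRT19 and EPCAM had median signals of 2874 to 20758 over the arrays, while that of CDH1 was 8.45. The summed signal of these 7 was 76213 to 99715 on p53i arrays and 67101 to 74313 on LacZi arrays, and its part in the differences below was not tested. Of 8 leukocyte markers, 7 had a probe set and 2 (CD3E and ITGAM) lay above the filter. The leukocyte markers' summed signal was 106 to 210.3 on p53i arrays and 145 to 221 on LacZi arrays. The ACTB control ratio (3' probe set over 5' probe set), which rises as RNA is degraded or copied incompletely, was 6.22 ± 1.77 on p53i arrays and 4.46 ± 0.523 on LacZi arrays (SD, n = 5 each, exact permutation test, two-sided, p = 0.0714). For the D3 arrays nothing in the labels states separate cultures, so p-values measure the spread between these samples, which may be technical.

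Among the transcription factors, IRF9 and IRF7 were higher in p53i cells, while IRF3 and IRF1 were not called. Among the receptor and kinase genes, the reported IFNAR1 probe set was lower in p53i cells, and IFNAR2, JAK1 and TYK2 were not called. Over all conditions, 2 of the 8 genes rose and 1 fell, while 6.49% of all genes tested were called, 3.38% higher and 3.11% lower. The median difference of the 8 genes was 0.0538, against -0.00493 over all genes tested. In bulk RNA, more RNA per cell and more cells with the RNA cannot be told apart.

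IRF9, the DNA-binding subunit of ISGF3, had signals of 845 and 843 in untreated p53i cells and of 552, 794 and 1144 in p53i cells after 8, 20 and 50 h with D3. In LacZi cells its signals were 298 and 197 untreated, and 228, 230.0 and 372 at the same times. The lowest p53i array stood above the highest LacZi array, so the groups did not overlap. Means were 836 ± 210.3 in p53i cells and 265 ± 70.3 in LacZi cells (SD, n = 5 each). The log2 difference was 1.60 ± 0.12 (SE, limma adjusted p = 7.02e-05), a 3.03-fold rise, and its p was the third smallest of the 12034 genes. Signals of the groups did not overlap for 6.39% of genes tested. A further probe set annotated to IRF9 and RNF31 together was not used. The IRF9 difference was 1.49 once the ACTB ratio entered as a covariate (limma adjusted p = 0.00322).

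IRF7, the interferon-inducible amplifier of interferon production, had signals of 562 and 808 in untreated p53i cells and of 261, 536 and 891 at 8, 20 and 50 h with D3. In LacZi cells the signals were 194 and 236 untreated, and 208, 266 and 289 with D3. The p53i 8 h array lay within the LacZi range, and the other 4 p53i arrays lay above it. Means were 611 ± 248.9 in p53i cells and 239 ± 39.6 in LacZi cells (SD, n = 5 each), and the log2 difference was 1.20 ± 0.19 (SE, limma adjusted p = 0.00462). After adding the ACTB ratio as a covariate, IRF7 differed by 0.86 and was not called (limma adjusted p = 0.0696). Without the 2 arrays of highest ratio, p53i untreated replicate 2 and p53i 20 h, it was 1.09 (limma adjusted p = 0.0457). IRF9 and IRF7 have 1 single-symbol probe set each, so the fit of all 41091 single-symbol probe sets without a filter used the same signals. Both were called in it, as were 0.969% of all probe sets.

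**Figure D1:**
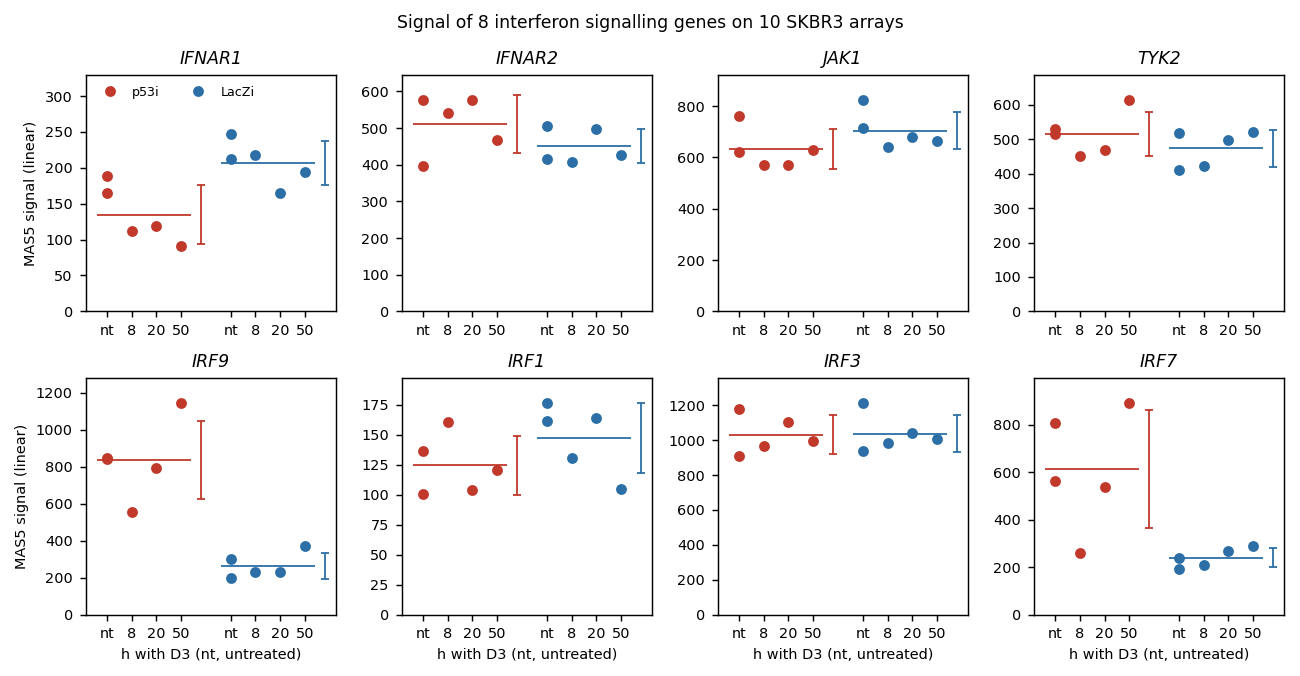
Signals (MAS5, linear) of the reported probe set of each of the 8 genes on every array, p53i on the left and LacZi on the right of each panel. The 2 untreated arrays (nt) are followed by the arrays at 8, 20 and 50 h with D3, horizontal lines are means and bars are SD (n = 5). IRF9 is at least 552 on every p53i array and at most 372 on every LacZi array, while IRF3 lies between 907 and 1213 throughout.

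IRF3, the latent factor that starts interferon-beta transcription, gave nearly equal signals. Its values were 907 and 1181 in untreated p53i cells, then 966, 1107 and 997 with D3, and 937 and 1213 in untreated LacZi cells, then 986, 1042 and 1004 with D3. The groups overlapped over almost their whole range, and the 2 untreated replicates of each siRNA lay further apart than the siRNA means. The log2 difference was -0.01 ± 0.10 (SE), which was not called.

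IRF1 had signals of 136 and 101 in untreated p53i cells and of 161, 104 and 121 with D3. In LacZi cells they were 177 and 162 untreated and 131, 164 and 105 with D3. The groups overlapped, and the difference of -0.22 ± 0.17 (SE) was not called. The p53i array was the lower one in untreated cells and at 20 h, and the higher one at 8 and 50 h. Its second probe set ranged from 55.1 to 178 in p53i cells and from 84.1 to 152 in LacZi cells, with a difference of -0.28 ± 0.22 (SE).

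IFNAR1, the receptor subunit that holds TYK2, was measured by 4 probe sets that did not move together. The one with the highest mean had signals of 189 and 165 in untreated p53i cells and of 112, 119 and 90.5 with D3, against 248 and 212 in untreated LacZi cells and 217, 165 and 194 with D3. It was lower in p53i cells in each of 4 matched conditions, though the 2 untreated p53i arrays lay within the LacZi range. The log2 difference was -0.59 ± 0.14 (SE, limma adjusted p = 0.0317).

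Another IFNAR1 probe set had signals of 169.8 and 161 in untreated p53i cells and of 145, 168 and 81.7 with D3, against 153 and 146 in untreated LacZi cells and 113, 138 and 96.5 with D3. It was higher in p53i cells in 3 of 4 matched conditions, by 0.13 ± 0.14 (SE) over all. The remaining IFNAR1 probe sets differed by 0.33 ± 0.21 and 0.10 ± 0.29 (SE), and none of these 3 was called. Averaging the 4 probe sets gave a difference of -0.01 for IFNAR1, which was not called. The call was also lost without any 1 D3 array or without LacZi untreated replicate 1 (-0.64 to -0.50 in these 7 fits), and with the ACTB ratio as a covariate (-0.63, limma adjusted p = 0.153).

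IFNAR2, the subunit that holds JAK1, had signals of 575 and 397 in untreated p53i cells and of 542, 577 and 467 with D3. In LacZi cells they were 504 and 417 untreated and 408, 498 and 426 with D3. The groups overlapped, and the difference was 0.17 ± 0.12 (SE). Its other probe sets differed by 0.25 ± 0.13 and 0.13 ± 0.17 (SE), so the 3 shared a sign and none was called.

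JAK1 had signals of 763 and 623 in untreated p53i cells and of 573, 572 and 630.2 with D3, against 825 and 714 in untreated LacZi cells and 640.1, 679 and 665 with D3. The reported JAK1 probe set was the lower one in p53i cells in 4 of 4 matched conditions, with log2 differences of -0.24 to -0.08, and the overall difference of -0.15 ± 0.09 (SE) was not called. Of its 4 other probe sets, 1 did not overlap between the siRNAs, with signals of 23.3 to 81.3 in p53i cells and 82.9 to 125 in LacZi cells. Among genes tested, with 1 probe set each, 6.39% did not overlap. That JAK1 probe set differed by -0.77 ± 0.28 (SE) and was not called (limma adjusted p = 0.230 over all single-symbol probe sets). The others differed by -0.15 to 0.03, and 2 of them lay below the filter.

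TYK2, with 1 probe set, had signals of 514 and 529 in untreated p53i cells and of 451, 469 and 614 with D3. In LacZi cells they were 519.6 and 412 untreated and 421, 497 and 522 with D3. The groups overlapped, and the difference was 0.12 ± 0.10 (SE), which was not called.

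**Figure D2:**
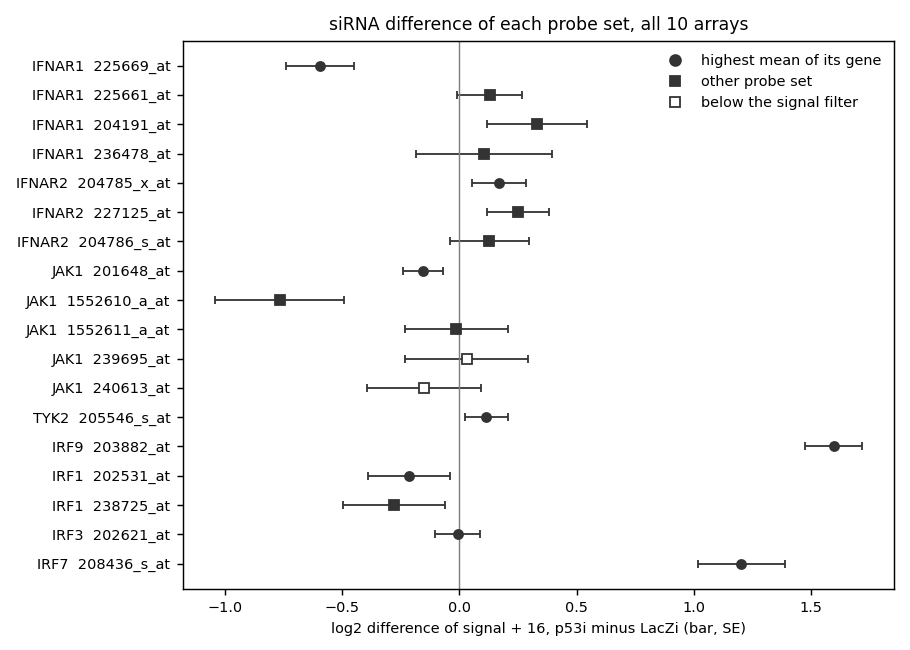
Difference between p53i and LacZi arrays (log2 of signal + 16, with SE) for each of the 18 probe sets, from a fit of all single-symbol probe sets with no filter. Circles mark the probe set with the highest mean of its gene, squares the others, and open symbols the 2 below the signal filter. IRF9 at 1.60 and IRF7 at 1.20 lie apart from the rest, and the 4 IFNAR1 probe sets lie on both sides of 0.

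When the untreated arrays, 2 for each siRNA, were compared alone, IRF9 differed by 1.73 ± 0.22 and IRF7 by 1.59 ± 0.23 (SE). Neither was called (limma adjusted p = 0.0977 and 0.146), and 0 of the 8 genes were, while 2 had an unadjusted p below 0.05. In that comparison 0.00831% of all genes were called, and 1377 of 12034 had an unadjusted p below 0.05. IRF9 and IRF7 had the fourth and the seventh smallest p of all genes. Without p53i untreated replicate 1 the differences of IRF9 and IRF7 were 1.73 and 1.84. They were 2.01 and 1.45 without LacZi untreated replicate 1, and 1.45 and 1.72 without LacZi untreated replicate 2. Each of these fits left 1 untreated array for that siRNA, so only the differences are given here. Over all fits with 1 array left out, the range was 1.45 to 2.01 for IRF9 and 1.33 to 1.84 for IRF7. The lowest IRF7 value came without p53i untreated replicate 2.

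Within conditions, the IRF9 difference between p53i and LacZi arrays was 1.73 untreated, 1.22 at 8 h, 1.72 at 20 h and 1.58 at 50 h with D3. For IRF7 it was 1.59, 0.30, 0.97 and 1.57 in the same order. Both genes thus had their smallest difference at 8 h, where each rests on 1 array per siRNA. The term for a different siRNA effect at 8 h, chosen after the values were seen, was -0.47 ± 0.30 for IRF9 and -1.12 ± 0.35 for IRF7 (SE), and neither was called (limma adjusted p = 1.00 for each). Of all genes, 0.00831% were called for that term, and for IRF7 the unadjusted p was 0.00831. The reported IFNAR1 probe set differed by -0.35, -0.87, -0.42 and -0.98 in the same order, with the larger falls at 8 and 50 h.

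**Figure D3:**
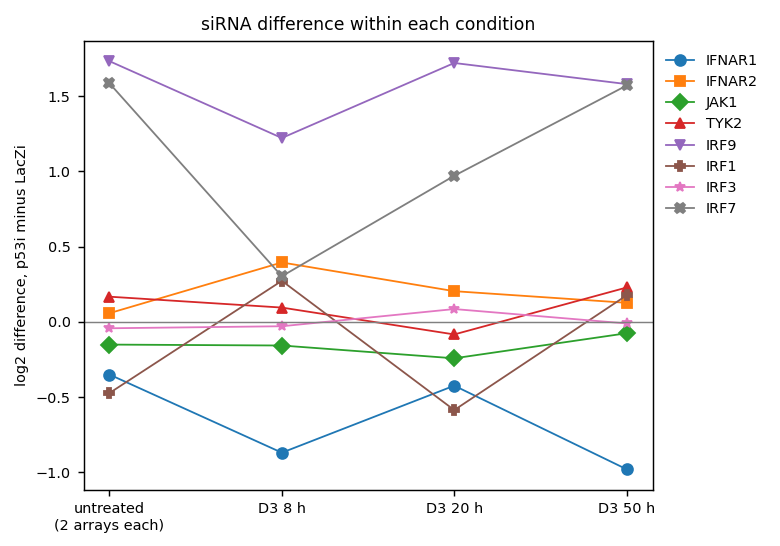
Difference between p53i and LacZi (log2 of signal + 16) of the reported probe set of each gene, within untreated cells (2 arrays per siRNA) and at each D3 time (1 array per siRNA). IRF9 stays between 1.22 and 1.73, IRF7 falls to 0.30 at 8 h, and IFNAR1 lies below 0 at each point.

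Of 5 genes listed as known ISGF3 targets with earlier results of these data in view, IFIT1, MX1 and IFI27 had mean LacZi signals of 9.48, 29.7 and 34.7, below the filter of 35.3. They passed it only through the p53i arrays, so no count or median over the list is given. ISG15, a ubiquitin-like modifier, had signals of 1085 to 4183 in p53i cells and 240.3 to 422 in LacZi cells. OAS1, a sensor of double-stranded RNA, had signals of 164 to 544 in p53i cells and 49.3 to 106 in LacZi cells. The groups did not overlap for either gene. These values are a description, since both were chosen with their direction known.

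Over the 10 arrays, the levels of IRF9 and IRF7 had a Pearson r of 0.90 (log2 signals). The points share the siRNA groups, so this is a description only. Of the 12033 other genes tested, those most like IRF9 were LGALS3BP (r = 0.98), SAMD9 (0.98), ISG15 (0.97), PARP9 (0.96) and UCP2 (0.96). Those most like IRF7 were XAF1 (r = 0.96), IFITM1 (0.96), BCAP31 (0.95), ADAR (0.95) and HLA-B (0.95). IRF1 had other neighbours, AK4 (r = 0.96), TMEM14C (0.94), POLE2 (0.91), SLC41A3 (0.90) and NCAPD3 (0.90), and its r with IRF9 was -0.57.

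With D3, 0 of the 8 genes were called over the 3 times, where limma called 4.4% of all genes, 1.99% higher and 2.41% lower. Their median difference was -0.0717, against -0.00471 over all genes. An unadjusted p below 0.05 was reached by 2 of them, IFNAR1 and JAK1, both lower with D3. Of all 12034 genes tested, 2334 reached it too. The labels give untreated cells no harvest times matched to those of D3, so the effects of D3 and of longer culture cannot be told apart.

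IFNAR1 had a mean of 149 ± 50.3 on D3 arrays (SD, n = 6) and 203 ± 35.3 on untreated arrays (SD, n = 4). The D3 array was lower than its untreated mean in 6 of 6 cases, and the log2 difference was -0.45 ± 0.15 (SE, limma adjusted p = 0.105). Its second probe set, which did not share the siRNA difference, had a D3 difference of -0.35 ± 0.14 (SE), with signals of 81.7 to 168 on D3 arrays and 146 to 169.8 on untreated arrays. At 50 h that IFNAR1 probe set had a difference of -0.72 ± 0.19 (SE) and was not called (limma adjusted p = 0.116 over all single-symbol probe sets, of which 0.645% were called at 50 h and 0.691% over the 3 times). The remaining IFNAR1 probe sets differed by -0.27 ± 0.22 and -0.09 ± 0.30 (SE) over the 3 times and were not called. The latter was above its untreated mean on 4 of 6 D3 arrays. JAK1 averaged 626 ± 45.4 on D3 arrays (SD, n = 6) and 731 ± 85.1 on untreated arrays (SD, n = 4), with a difference of -0.21 ± 0.09 (SE) that was not called. A JAK1 probe set below the signal filter went the other way, with signals of 24.8 to 43.4 on D3 arrays and 6.48 to 24.6 on untreated arrays. D3 and untreated arrays did not overlap for 4.35% of genes tested.

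After 8, 20 and 50 h the D3 differences of IRF9 were -0.34, -0.08 and 0.51 (SE 0.17 each), and those of IRF7 were -0.68, -0.01 and 0.40 (SE 0.25 each). None of these passed the threshold (limma adjusted p = 0.114 for IRF9 at 50 h and 0.571 for IRF7 at 8 h). At these times 0 of the 8 genes were called, while 0.175%, 0.59% and 4.3% of all genes were called in that order. An unadjusted p below 0.05 was reached by IRF7 at 8 h, by IFNAR1 at 20 h and by IRF9 and IFNAR1 at 50 h. Of all 12034 genes, 904, 1643 and 2395 reached it at 8, 20 and 50 h. The 2 siRNAs did not contribute equally at 8 h. IRF7 at 8 h stood at -1.32 in p53i cells and -0.04 in LacZi cells, and IRF9 at -0.60 in p53i cells and -0.09 in LacZi cells. At 50 h both genes were above their untreated mean with either siRNA, IRF9 by 0.43 in p53i cells and 0.58 in LacZi cells and IRF7 by 0.39 and 0.41 in the same order.

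Over the 3 times, the D3 differences of the remaining genes on their reported probe sets were between -0.12 and 0.04. IRF1 was at the low end and IFNAR2 at the high end, with TYK2 at 0.00 and IRF3 at -0.05. The second IRF1 probe set differed by -0.47 ± 0.22 (SE), and the other IFNAR2 probe sets by -0.18 and -0.04. None of these was called. On the reported IRF1 probe set, the D3 arrays gave 0.41, -0.15 and 0.04 at 8, 20 and 50 h in p53i cells and -0.34, -0.04 and -0.61 in LacZi cells. The second IRF1 probe set gave -0.91, -0.85 and 0.26 in p53i cells and -0.66, -0.53 and -0.15 in LacZi cells. The difference between the siRNAs in the response to D3 was -0.64 ± 0.35 for IRF7, 0.43 ± 0.34 for IRF1, -0.41 ± 0.28 for IFNAR1 and -0.23 ± 0.25 for IRF9 (SE). On the second IRF1 probe set it was -0.05 ± 0.46 (SE). In limma 0 of the 8 genes and 0% of all genes were called for this difference in D3 response. An unadjusted p below 0.05 was found for 0 of the 8 and for 645 of all genes.

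**Figure D4:**
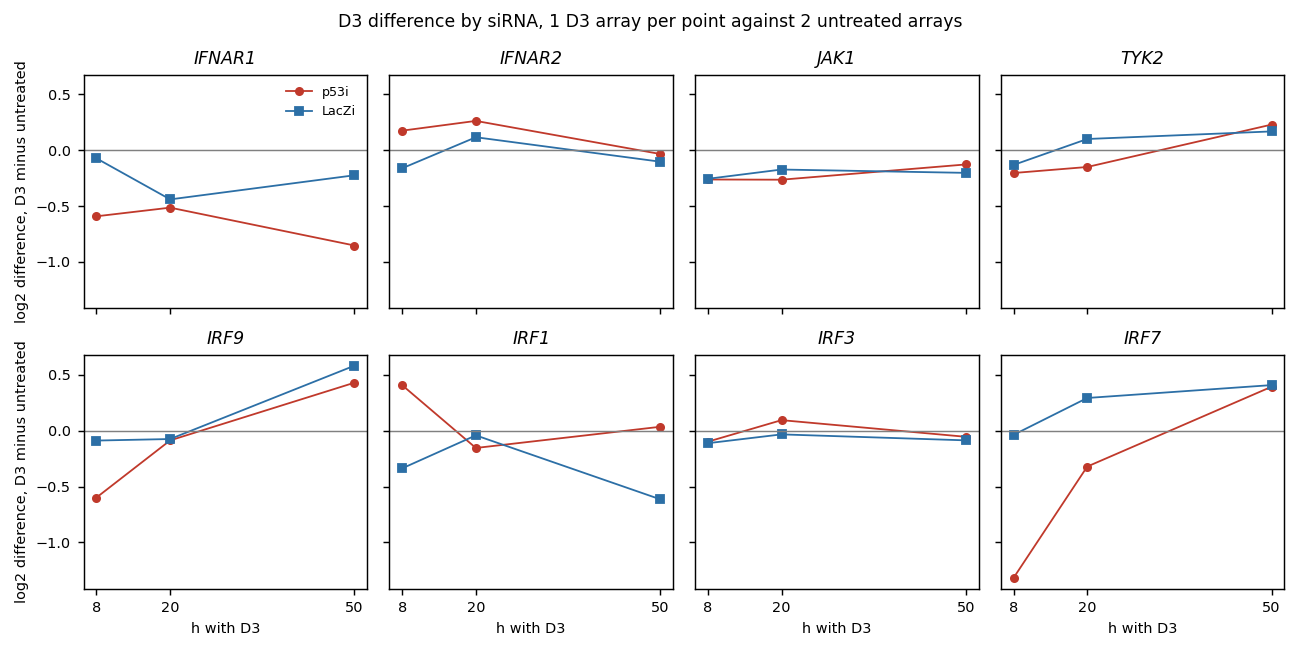
Difference between each D3 array and the mean of the 2 untreated arrays of the same siRNA (log2 of signal + 16) at 8, 20 and 50 h, p53i as circles and LacZi as squares. IRF7 in p53i cells starts at -1.32 and reaches 0.39, and IRF9 ends above 0 with either siRNA. The reported probe sets of IFNAR1 and JAK1 lie below 0 at every point.

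The wider pathway was given by 57 further genes, of which 53 had a single-symbol probe set and 36 were tested. In p53i cells 2 rose and 1 fell, where 3.38% of all genes rose and 3.11% fell, and the median was -0.0594. STAT3, the factor downstream of interleukin-6 type cytokines, rose by 0.39 ± 0.08 (SE, limma adjusted p = 0.0177), with signals of 3058 to 3852 in p53i cells and 2497 to 2883 in LacZi cells. It was the 1 called of 10 tested STATs, IRFs and JAKs outside the 8 genes. Other STAT3 probe sets differed by 0.37, 0.48 and 0.02. The STAT3 call was lost without any 1 of the 20 and 50 h arrays (0.35 to 0.45 with 1 array left out).

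IFNGR1, the ligand-binding chain of the interferon-gamma receptor, fell by 0.43 ± 0.09 on the log2 scale (SE, limma adjusted p = 0.0179), to a mean of 1004 ± 146 in p53i cells, against 1371 ± 279 in LacZi cells (SD, n = 5 each). Its other probe sets differed by -0.71 and -0.89, so the 3 shared a direction. It was the 1 called of 4 other receptor genes. The IFNGR1 call was lost without any 1 D3 array or without LacZi untreated replicate 1 (-0.48 to -0.36 with 1 array left out), and with the ACTB ratio as a covariate (-0.41, limma adjusted p = 0.125).

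Among 12 negative regulators, SOCS3, a feedback inhibitor of JAK kinases, rose in p53i cells by 0.40 ± 0.10 (SE, limma adjusted p = 0.0410), a call lost in 9 of 10 fits with 1 array left out (all but that without p53i untreated replicate 1, 0.34 to 0.44). The SOCS3 call was also lost with the ACTB ratio as a covariate (0.32, limma adjusted p = 0.283). Its other probe sets differed between the siRNAs by 0.67, 0.04 and -0.08. USP18, an interferon-induced brake on the receptor, named here after its values were seen, had signals of 274 to 428 in p53i cells and 191 to 308 in LacZi cells. The USP18 difference of 0.32 ± 0.13 (SE) was not called. None of the 8 adaptors and kinases upstream of IRF3 and IRF7 was called. Of 20 interferon genes 18 had a probe set and 2 lay above the filter, and neither was called. IFNB1 had signals of 1.48 to 17.9 over the 10 arrays.

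With D3, 3 of the 36 rose and 0 fell, where 1.99% of all genes rose and 2.41% fell. SOCS3 rose by 1.44 ± 0.11 (SE, limma adjusted p = 2.26e-05). Its signals in p53i cells were 187 and 212 untreated and 524, 578 and 549.7 at 8, 20 and 50 h, and in LacZi cells 143 and 140.2 untreated and 444, 489 and 351.3. Each D3 array was above each untreated array, and the call held with each array left out in turn (1.39 to 1.48). Of its other probe sets, 1 differed by 0.95 with D3 and 2 by 0.10 and -0.08. JAK2, a kinase of the interferon-gamma receptor, rose by 0.78 ± 0.17 (SE, limma adjusted p = 0.0286) on its highest probe set, while the other 2 differed by -0.09 and -0.13. IFNGR1 rose by 0.36 ± 0.09 (SE, limma adjusted p = 0.0448), while its other probe sets differed by 0.09 and 0.92. With 1 array left out the JAK2 call was lost in 7 of 10 fits, without LacZi or p53i untreated replicate 1, either 8 or 20 h array, or p53i 50 h (0.70 to 0.87). The IFNGR1 call was lost in 9, all but that without p53i 50 h (0.30 to 0.43).

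**Figure D5:**
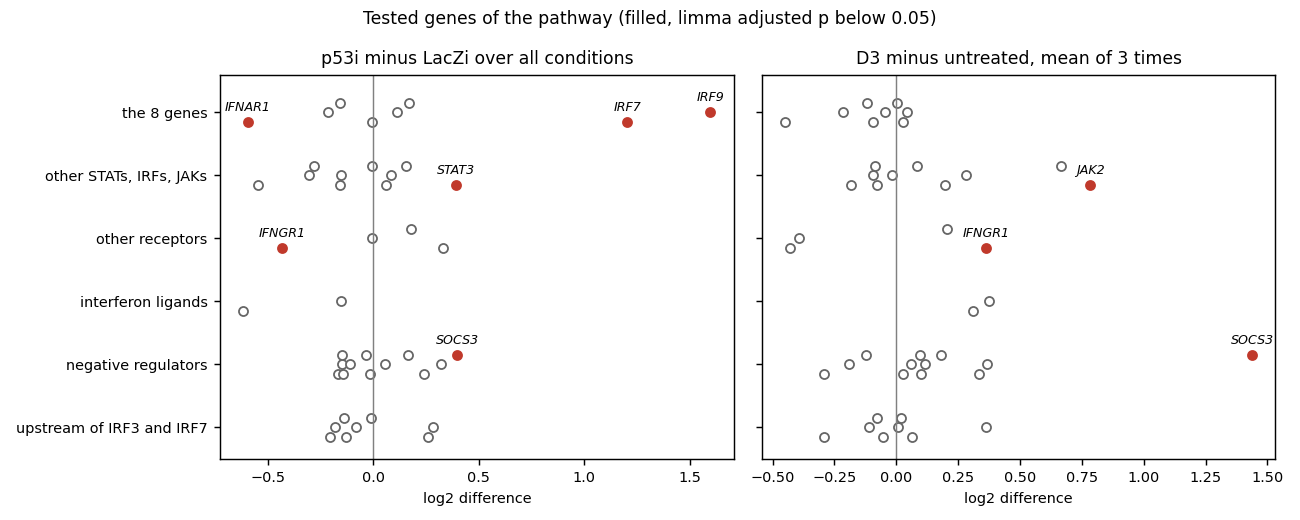
Differences (log2 of signal + 16) of all tested genes of the pathway, p53i minus LacZi on the left and D3 minus untreated on the right, 1 row per gene list. Filled points passed the threshold. IRF9 and IRF7 have the largest siRNA differences of these genes and SOCS3 the largest D3 difference, at 1.44.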

How the data were processed

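The authors deposited 1 linear intensity per probe set and array, made with MAS5 per the submitters' processing notes (version not given in the sources used here). Each array's mean without the lowest and highest 2% was 200.0, so arrays had been scaled, and no further normalization was applied. Probe sets were named by the platform annotation: 41091 carried 1 symbol, 1801 several and 11783 none (62 array controls included). Detection calls were not used.

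Values were log2(signal + 16). The 50% of probe sets with the highest mean were kept, 1 per gene (highest mean), leaving 12034 genes. Tests used limma 3.58.1 in R 4.3.3 (intensity trend, two-sided): siRNA plus D3 time as additive terms (5 residual degrees of freedom), that model plus the siRNA-by-D3 interaction (4), and 8 group means for untreated cells (2). Single D3 arrays were taken to have the spread of the remaining groups. Every single-symbol probe set was also fitted without a filter. The tests were checked on simulated data. Planned protein comparisons were not run. The number of arrays limits precision.

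Members and lists were chosen with earlier results of these data known. Named were all members, pathway genes called for siRNA or D3 (at most 12), the 5 genes most correlated with IRF9, IRF1 and IRF7, and 5 ISGF3 targets.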

Additional observations from a re-analysis of the deposited data

How the results depend on the processing

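Alternatives were quantile normalization, median centring, no offset or an offset of 64, no filter or the upper 25%, the mean of a gene's probe sets, group means, no intensity trend, the replicate block, the ACTB ratio as a covariate and each array left out, and, chosen after seeing the data, a fit without the 2 arrays of highest ACTB ratio. With 1 array left out, genes and probe sets were kept as chosen on all 10, and a group left with 1 array was assumed to vary like the rest. The planned protein comparison was not run. IRF9 stayed called over all conditions in each of these fits. Of the 8 genes, 3 were called over all conditions, 2 to 3 with 1 array left out and 1 with the ACTB covariate. In untreated cells 0 were called, 2 with median centring, 2 with the replicate block and 0 to 2 with 1 array left out. The untreated replicate numbers are shared by both siRNAs, but nothing says that they pair the samples (the correlation of replicate 1 deviations over genes was 0.21). With the block, which takes this pairing as given, IRF9 and IRF7 had limma adjusted p of 2.59e-05 and 5.08e-05 in untreated cells. The block adds a term to the 8 group means, so that fit kept fewer residual degrees of freedom than the 2 of the main fit. Its p-values hold only if the pairing is real, which the labels do not state. The count of all genes called there was 0 to 561 over the settings, against 1 in the main fit. IFNAR1 lost its call without a filter, without the trend, with median centring (-0.55), with group means (-0.66) and without the 2 arrays of highest ACTB ratio (-0.66), and lay below the upper 25%. The cause was not tested.

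Uncalled differences that changed sign were small. For p53i minus LacZi, IRF3 stood at 0.038 with median centring, 0.00102 with group means and -0.060 to 0.055 with 1 array left out, IRF1 at 0.039 with the ACTB covariate and 0.022 without the 2 arrays of highest ratio, and IFNAR1 in untreated cells at 0.18 with probe-set means. For D3 over the 3 times, median centring gave -0.062 for IRF9, -0.048 for IFNAR2 and -0.088 for TYK2. Probe-set means gave -0.060 for IFNAR2 and 0.12 for JAK1, and the ACTB covariate -0.00394 for TYK2. Without the 2 arrays of highest ratio it was 0.092 for IRF7 and -0.068 for IFNAR2, and, at 20 h, 0.22 for IRF7. With 1 array left out, the D3 ranges that crossed 0 were -0.11 to 0.11 for IRF9, -0.28 to 0.091 for IRF7, -0.13 to 0.030 for IRF3, -0.078 to 0.12 for IFNAR2, -0.070 to 0.055 for TYK2, and, at 20 h, -0.21 to 0.00222 for IRF9 and -0.16 to 0.16 for IRF7. The IRF9 difference in D3 response ranged from -0.51 to 0.056.

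The background moved more. Of all genes, 781 were called between siRNAs (51 to 1302 over the settings and 179 to 1046 with 1 array left out) and 529 with D3 (52 to 955, and 123 to 852). In untreated cells 1 was called (0 to 561, and 1 to 267), at 8 h 21 (4 to 56, and 1 to 29), at 20 h 71 (7 to 280, and 7 to 196) and at 50 h 518 (54 to 960, and 46 to 930). For the difference in D3 response 0 were called (0 to 0, and 0 to 61). Between siRNAs 407 were higher and 374 lower, and 376 and 142 with median centring. With D3 the split was 239 and 290, and 142 and 528 with median centring, and at 50 h 220 and 298, and 126 and 453. Signals near background limit the weaker probe sets.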
